A study of Mus musculus with 24 samples.

Results

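PPAR gamma, encoded by Pparg, is a nuclear receptor that binds fatty acid ligands and, as a heterodimer with a retinoid X receptor, turns on genes of lipid uptake and storage. It is most abundant in adipocytes and low in healthy liver, and it is known to rise in fatty liver, where it drives genes that are otherwise typical of fat. The genes examined here are Pparg itself and 4 genes known as its targets in fatty liver: Cd36, a fatty acid transporter and scavenger receptor of the plasma membrane; Mogat1, a monoacylglycerol acyltransferase that makes diacylglycerol; Fabp4, a cytosolic fatty acid carrier of adipocytes, macrophages and endothelium; and Cfd, the serine protease complement factor D or adipsin. They were found by gene symbol, and this set of genes was chosen with earlier results of these data known. Each of the 5 symbols matched 1 of the 41388 features, and genes of lipid droplet coats and droplet fusion were left out of the choice.

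Liver mRNA was sequenced from male mice on a C57BL/6J background. Adn-Lpin1-/- mice carried floxed Lpin1 alleles and Cre recombinase under the adiponectin promoter, which is active in adipocytes, so lipin 1, a phosphatidic acid phosphohydrolase, was deleted in fat and not in the liver that was sequenced. Their WT littermates carried the floxed alleles too, without Cre. Feeding of a low-fat diet (LFD, 10% of kcal from fat) or a high-fat diet (HFD, 60%) began at 8 weeks of age, and tissue was taken after a 4 hour fast. The labels give 16 weeks of diet and the methods 5 weeks. Each of the 4 groups, WT LFD, Adn-Lpin1-/- LFD, WT HFD and Adn-Lpin1-/- HFD, held 5 mice with 1 library each, and 1 further library per group was made from pooled RNA. Counts per mouse summed to between 36260187 and 45999456 in WT LFD, 51095146 and 61435897 in Adn-Lpin1-/- LFD, 54036184 and 62249701 in WT HFD, and 57550362 and 81072794 in Adn-Lpin1-/- HFD.

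The libraries were of liver by their content: Alb, the hepatocyte gene for albumin, was the most abundant of the hepatocyte markers, with a mean RPKM (the deposited CPM, which are counts relative to the library's total, divided by exon length in kilobases) of 36630 in WT LFD and 32500 in Adn-Lpin1-/- HFD. Liver Lpin1 does not check the genotype labels, since the deletion lay in adipocytes. It was 358 ± 208 CPM (here on TMM-scaled library sizes; SD, n = 5) in WT LFD, 614 ± 339 CPM in Adn-Lpin1-/- LFD, 274 ± 168 CPM in WT HFD and 331 ± 216 CPM in Adn-Lpin1-/- HFD. Its range was 142 to 673 CPM in WT LFD, 322 to 1195 CPM in Adn-Lpin1-/- LFD, 137 to 556 CPM in WT HFD and 120 to 580 CPM in Adn-Lpin1-/- HFD.

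PPAR gamma with its partner receptor binds direct repeats of the half-site AGGTCA with 1 base between them. RefSeq promoter windows on GRCm38.p6, from 250 bases before to 50 after a start site, were found for 4 of the 5 genes (6 windows, 3 of them of Pparg, with Fabp4 not among them). The half-site AGGTCA, on either strand, was in 3 of these 6 windows and in 16.3% of all 32851 windows. The stretches that hold it are shown because they are the letters nearest to the receptor's known half-site in these promoters, each of 30 bases on the strand of the gene, with the half-site or its reverse complement TGACCT in capitals.
Cd36, chr5:17836107-17836136, minus strand, offset -228 from the start site: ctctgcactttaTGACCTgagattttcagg
Pparg, chr6:115361104-115361133, plus strand, offset -28 from the start site: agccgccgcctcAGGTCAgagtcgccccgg
Pparg, chr6:115362328-115362357, plus strand, offset -9 from the start site: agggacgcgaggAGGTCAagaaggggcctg
GENCODE annotates no exon at the Cd36 stretch. Both Pparg stretches lie in annotated 5' untranslated exons, from 115360951 to 115361370 and from 115362292 to 115362417. The exons of Pparg in GENCODE run from 115360951 to 115490399, and the gene span given below begins later, at 115361221. The full direct repeat, searched on both strands with any base allowed as spacer and in place of the T of each half-site, was in 0.381% of all windows and in none of the 6, and the windows of Mogat1 and Cfd held no AGGTCA. The TATA motif TATAAA was in 13.6% of all windows and, on the opposite strand, in the Pparg window whose half-site lies at offset -9. These matches describe the letters of the windows, and no binding was measured.

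Of the 5 genes, 4 were higher in Adn-Lpin1-/- than in WT liver on LFD (Pparg, Mogat1, Fabp4 and Cfd) and 3 on HFD (Mogat1, Fabp4 and Cfd), at the threshold of 0.05 on edgeR's adjusted p. Across the 13052 genes tested, 14.4% were called on LFD (6.27% higher, 8.11% lower) and 18.6% on HFD (9.87% higher, 8.78% lower). The median log2 fold change of the 5 genes was 1.77 on LFD and 1.69 on HFD, beside 0.01 and 0.00 over all genes tested. No member was called between the diets, where 1.1% of genes were called in WT and 2.46% in Adn-Lpin1-/-. Each genotype contrast has its own mice, and the diet contrasts share these mice with them.

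**Figure D1:**
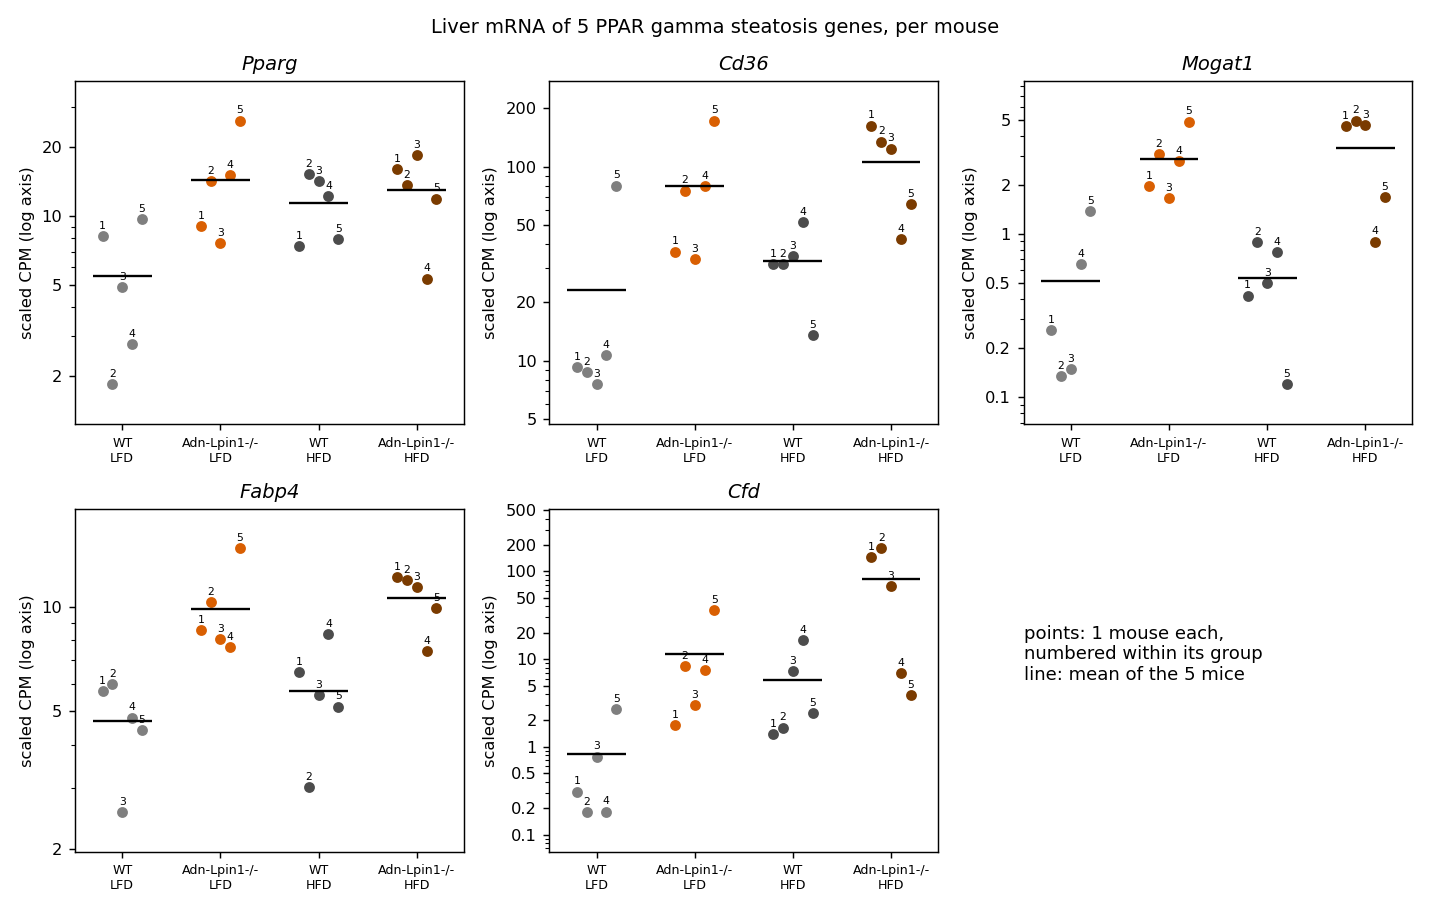
Scaled CPM (log axis) of Pparg, Cd36, Mogat1, Fabp4 and Cfd in the liver of each mouse, with 5 mice in each of the 4 groups; points are mice, numbered within their group, and lines are group means. Mogat1 lay below 1.39 CPM in all 10 WT mice, and Cd36 of WT LFD mouse 5, at 79.9 CPM, stood apart from the other 4 mice of its group.

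Pparg (ENSMUSG00000000440, chromosome 6, 115361221 to 115490401, plus strand, GRCm38) encodes the receptor, and gene counts do not separate its isoforms. In WT LFD its level was 8.16, 1.84, 4.91, 2.76 and 9.66 CPM in mice 1 to 5. In Adn-Lpin1-/- LFD it was 9.05, 14.2, 7.64, 15.1 and 26.1 CPM. The 2 groups overlapped, since 3 of the 5 Adn-Lpin1-/- mice lay above every WT mouse and the other 2 within the WT range. The difference was 2.64-fold (log2 fold change 1.4 ± 0.41 SE, adjusted p = 0.0286 in edgeR; two-sided exact permutation p = 0.0397 for 5 mice against 5). The call depended on single mice: the adjusted p was between 0.051 and 0.0984 without WT LFD mouse 2, 3 or 4 or without Adn-Lpin1-/- LFD mouse 2 or 5, with a log2 fold change of 1.07 without the last.

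On HFD, Pparg was 7.40, 15.3, 14.2, 12.2 and 7.93 CPM in WT mice 1 to 5. In Adn-Lpin1-/- mice it was 16.1, 13.6, 18.4, 5.33 and 11.9 CPM. The groups overlapped, with both the highest and the lowest of the 10 values in Adn-Lpin1-/- mice, and the difference was not called (log2 fold change 0.20 ± 0.40 SE, adjusted p = 0.766 in edgeR; exact permutation p = 0.746). Group means were 5.47 ± 3.38 CPM (SD, n = 5) in WT LFD, 11.4 ± 3.59 CPM in WT HFD, 13.1 ± 4.97 CPM in Adn-Lpin1-/- HFD and 14.4 ± 7.26 CPM in Adn-Lpin1-/- LFD. The 3 higher groups were within their spread of each other, and the step from WT LFD to WT HFD was 2.09-fold but not called (log2 fold change 1.06 ± 0.41 SE, adjusted p = 0.212 in edgeR; exact permutation p = 0.0476, with 3 of 5 HFD mice above all LFD mice). The genotype effect on Pparg was smaller on HFD than on LFD by 1.20 ± 0.57 SE on the log2 scale, which did not pass the test of the difference (adjusted p = 0.691 in edgeR). No gene of the 13052 (0.0%) passed that test in edgeR, where 938 genes had an unadjusted p under 0.05, DESeq2's Wald test called 30 genes and voom called 0 without and 190 with the pools.

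Cd36 (ENSMUSG00000002944, chromosome 5, 17781690 to 17888959, minus strand) was the most abundant of the 5 genes per length in WT HFD after Fabp4, with a mean RPKM of 8.04 beside 8.62. In WT LFD its level was 9.32, 8.75, 7.56, 10.7 and 79.9 CPM in mice 1 to 5, so that mouse 5 was 7.47 times as high as the next. In Adn-Lpin1-/- LFD it was 36.6, 75.3, 33.6, 79.2 and 173 CPM, above the other 4 WT mice in every case, and 1 of the 5 lay above WT mouse 5. The difference was 3.41-fold and narrowly missed the threshold (log2 fold change 1.77 ± 0.62 SE, adjusted p = 0.0627 in edgeR; exact permutation p = 0.0397). Without WT LFD mouse 5, the WT mean fell from 23.3 ± 31.7 CPM (SD, n = 5) to 9.09 ± 1.31 CPM (n = 4) and the log2 fold change was 3.12 (adjusted p = 0.00055 in edgeR).

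On HFD, Cd36 was 31.5, 31.6, 34.8, 52.1 and 13.5 CPM in WT mice 1 to 5. In Adn-Lpin1-/- mice it was 163, 135, 124, 42.5 and 64.0 CPM. Mice 1, 2, 3 and 5 of the Adn-Lpin1-/- group lay above every WT mouse, and mouse 4 lay below 1 of them. The difference of 3.24-fold again missed the threshold in edgeR (log2 fold change 1.69 ± 0.62 SE, adjusted p = 0.0604; exact permutation p = 0.0159). Cd36 passed under several other fits on each diet but not under all. Its adjusted p was 0.0398 on LFD and 0.0432 on HFD with DESeq2's Wald test, and 0.00403 and 0.0237 with voom. Over all the other fits, adjusted p ran from 0.000126 to 0.12 on LFD and from 0.000413 to 0.0712 on HFD. The lowest on each diet came from voom with the pools, which repeat RNA of the same mice and are not independent libraries. The genotype effect on HFD minus that on LFD was -0.08 ± 0.86 SE on the log2 scale (adjusted p = 0.996 in edgeR), an SE too wide to call the effects alike.

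Mogat1 (ENSMUSG00000012187, chromosome 1, 78510991 to 78538173, plus strand) catalyses the first step of the monoacylglycerol route to triglyceride. It was the least abundant of the 5 genes per length in all 4 groups, with a mean RPKM of 0.315 in WT LFD and 2.29 in Adn-Lpin1-/- HFD. WT LFD mice 1 to 5 had 0.257, 0.135, 0.149, 0.651 and 1.38 CPM. Adn-Lpin1-/- LFD mice had 1.97, 3.09, 1.66, 2.79 and 4.87 CPM, and the groups did not overlap, as for 10.1% of all genes tested (3.89% higher in Adn-Lpin1-/-). The difference was 5.53-fold (log2 fold change 2.47 ± 0.59 SE, adjusted p = 0.00893 in edgeR; exact permutation p = 0.00794, the smallest that 5 mice against 5 can give).

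On HFD, Mogat1 was 0.419, 0.892, 0.501, 0.770 and 0.120 CPM in WT mice 1 to 5. In Adn-Lpin1-/- mice it was 4.54, 4.94, 4.65, 0.898 and 1.68 CPM. The groups did not overlap (as for 11.4% of genes tested, 5.78% higher), but Adn-Lpin1-/- mouse 4 lay only just above the highest WT mouse. The difference was 6.20-fold (log2 fold change 2.63 ± 0.58 SE, adjusted p = 0.00453 in edgeR; exact permutation p = 0.00794). The gene had over 1 CPM in 10 of the 20 libraries, 9 of them from Adn-Lpin1-/- mice, so it entered the tests through the groups in which it was high. The call held in edgeR with each of the 20 mice left out in turn on both diets, with an adjusted p of at most 0.0281 on LFD and 0.0136 on HFD. Part of Mogat1 overlaps BC035947 on the opposite strand, which had at most 48 counts in any library, and reads that fit both genes were not counted.

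Fabp4 (ENSMUSG00000062515, chromosome 3, 10204347 to 10208576, minus strand) had the smallest spread of the 5 genes among mice in 3 of the 4 groups, with an SD of log2 CPM between 0.293 and 0.485. The exception was WT HFD, where it was 0.537, beside 0.481 for Pparg. WT LFD mice 1 to 5 had 5.71, 5.98, 2.56, 4.79 and 4.41 CPM. Adn-Lpin1-/- LFD mice had 8.58, 10.3, 8.08, 7.65 and 14.7 CPM, all above every WT mouse. The difference was 2.10-fold (log2 fold change 1.07 ± 0.25 SE, adjusted p = 0.00718 in edgeR; exact permutation p = 0.00794).

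On HFD, Fabp4 was 6.49, 3.02, 5.55, 8.33 and 5.15 CPM in WT mice 1 to 5. In Adn-Lpin1-/- mice it was 12.2, 11.9, 11.4, 7.44 and 9.88 CPM. Only mouse 4 of the Adn-Lpin1-/- group lay within the WT range, below WT mouse 4. The difference was 1.85-fold (log2 fold change 0.89 ± 0.24 SE, adjusted p = 0.0162 in edgeR; exact permutation p = 0.0159), and it was called on both diets without any 1 of the 20 mice. Group means rose in the order WT LFD (4.69 ± 1.35 CPM), WT HFD (5.71 ± 1.94 CPM), Adn-Lpin1-/- LFD (9.86 ± 2.89 CPM) and Adn-Lpin1-/- HFD (10.6 ± 1.96 CPM), in which neither step between the diets was called.

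Cfd (ENSMUSG00000061780, chromosome 10, 79890853 to 79892656, plus strand) had the largest fold change of the 5 genes in each of the 4 contrasts. By fold change in Adn-Lpin1-/- against WT it ranked 3 of the 13052 genes on LFD and 2 on HFD, counted from the highest. WT LFD mice 1 to 5 had 0.309, 0.180, 0.774, 0.182 and 2.71 CPM. Adn-Lpin1-/- LFD mice had 1.76, 8.35, 2.97, 7.52 and 35.9 CPM. Of the 5 Adn-Lpin1-/- mice, 4 lay above every WT mouse and mouse 1 lay below WT mouse 5. The difference was 13.6-fold (log2 fold change 3.76 ± 1.18 SE, adjusted p = 0.0377 in edgeR; exact permutation p = 0.0159), with 1 library of 5 over 1 CPM in WT LFD and all 5 in Adn-Lpin1-/- LFD. This call was lost when WT LFD mouse 1, 2, 3 or 4 or Adn-Lpin1-/- LFD mouse 2 or 5 was left out (adjusted p 0.0551 to 0.151, log2 fold change 2.62 without Adn-Lpin1-/- LFD mouse 5) and with voom (3.93, adjusted p = 0.33).

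On HFD, Cfd was 1.39, 1.66, 7.37, 16.3 and 2.41 CPM in WT mice 1 to 5. In Adn-Lpin1-/- mice it was 146, 183, 68.5, 6.89 and 3.90 CPM. Adn-Lpin1-/- mice 1, 2 and 3 stood far above every WT mouse, whereas mice 4 and 5 lay inside the WT range, and the highest of the group was 47.1 times the lowest. The difference was 14.1-fold (log2 fold change 3.81 ± 1.02 SE, adjusted p = 0.0150 in edgeR), while the exact permutation test of the mean log2 CPM gave p = 0.0635. Cfd was also the member that differed most between the diets, 6.97-fold higher on HFD in WT and 7.21-fold in Adn-Lpin1-/-, but neither was called (log2 fold change 2.80 ± 1.19 SE, adjusted p = 0.251, and 2.85 ± 0.97 SE, adjusted p = 0.137, in edgeR). Group means were 0.831 ± 1.08 CPM in WT LFD, 5.83 ± 6.36 CPM in WT HFD, 11.3 ± 14.1 CPM in Adn-Lpin1-/- LFD and 81.8 ± 81.2 CPM in Adn-Lpin1-/- HFD, and neighbours in this order overlapped. Per length, Cfd had a mean RPKM of 0.858 in WT LFD and of 95.2 in Adn-Lpin1-/- HFD, where it was the most abundant of the 5 genes.

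**Figure D2:**
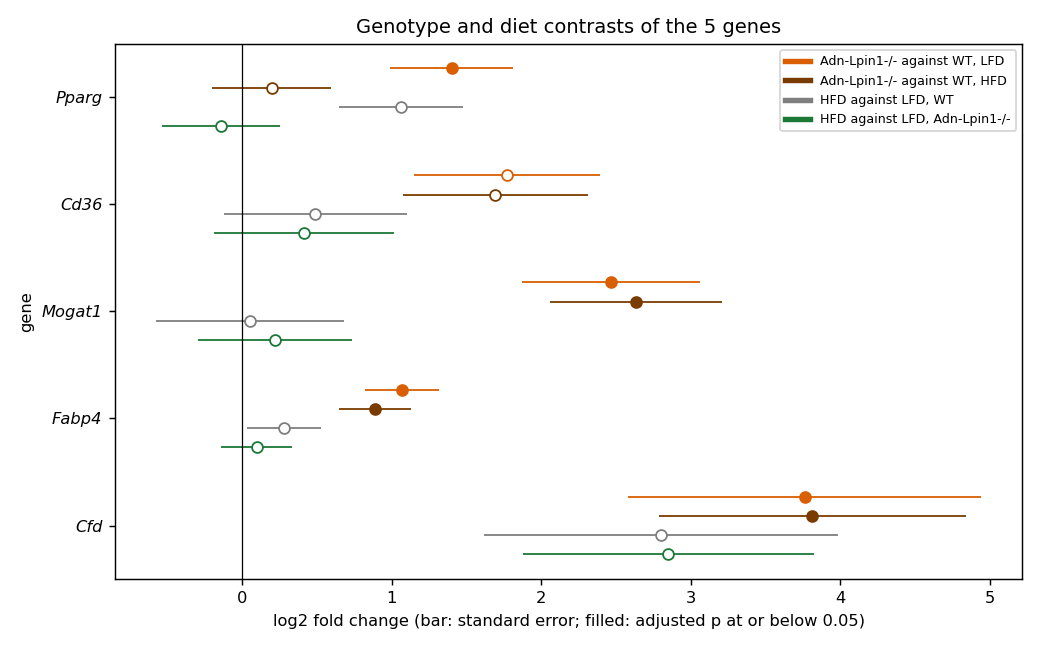
Log2 fold change with its standard error of each gene in 4 contrasts, from edgeR over 5 mice a group; filled points have an adjusted p at or below 0.05. The genotype contrasts (top pair of each gene) lie above 0 for all 5 genes on both diets, and Pparg on HFD, at 0.20, is the smallest of them.

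Cd36, Mogat1 and Fabp4 shared 1 order of group means with Cfd: WT LFD lowest, then WT HFD, Adn-Lpin1-/- LFD and Adn-Lpin1-/- HFD. Pparg alone was highest in Adn-Lpin1-/- LFD. In the diet contrasts of the other genes, Cd36 differed 1.4-fold in WT and 1.33-fold in Adn-Lpin1-/-, Mogat1 1.04-fold and 1.16-fold, and Fabp4 1.21-fold and 1.07-fold, all higher on HFD and none called (lowest adjusted p = 0.632 in edgeR). Without WT LFD mouse 5, Cd36 was called between the diets in WT (log2 fold change 1.85, adjusted p = 0.0478 in edgeR). Without Adn-Lpin1-/- LFD mouse 5, Cfd was called between the diets in Adn-Lpin1-/- (4.00, adjusted p = 0.0461 in edgeR).

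The genes also varied together among mice of the same group. With each group's mean taken out of the log2 CPM, Cd36 and Mogat1 were the closest pair over the 20 mice (Pearson r = 0.874, permutation p = 1e-05, the smallest that 100000 permutations can give, adjusted p = 0.0001 over 10 pairs, Spearman rho 0.850, p = 2e-05). Without the 2 mice farthest from the median of Cd36, mouse 5 of each LFD group, r was 0.860. Pparg followed Cd36 (r = 0.720, permutation p = 0.00068, adjusted 0.00227, rho 0.728, p = 0.00065), and r was 0.699 without the 2 farthest mice. Pparg also followed Cfd (r = 0.672, permutation p = 0.0016, adjusted 0.004, rho 0.728, p = 0.00096), with r = 0.617 without 2 mice. Values of this size were not particular to the members. Among all genes tested, also with group means removed, Abcc3 ranked 32 in likeness to Pparg with r = 0.747. Clstn3 ranked 21 in likeness to Cd36 with r = 0.896.

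Pparg and Mogat1 had r = 0.676 (permutation p = 0.00522, adjusted 0.00958, rho 0.686, p = 0.00424), but this rested in part on WT LFD mouse 2 and Adn-Lpin1-/- HFD mouse 4, since without them r was 0.519 and the adjusted p = 0.08. Cfd varied with Cd36 (r = 0.774, permutation p = 0.00031, adjusted 0.00155, rho 0.762, p = 0.00065) and with Mogat1 (r = 0.649, permutation p = 0.00575, adjusted 0.00958, rho 0.624, p = 0.00899), with r = 0.732 and 0.622 without 2 mice. None of the pairs with Fabp4 passed over the 20 mice. Its r ranged from 0.151 with Pparg to 0.392 with Cd36 and its adjusted permutation p from 0.127 to 0.575. Within Adn-Lpin1-/- mice its r with the other 4 genes was 0.787 to 0.840 on LFD and 0.806 to 0.965 on HFD, whereas in WT mice it was -0.469 to 0.103 on LFD and -0.388 to 0.613 on HFD (5 mice a group, not tested).

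Within groups, the same mice were often high or low for several of the genes. Mouse 5 of WT LFD ranked highest of its group for Pparg, Cd36, Mogat1 and Cfd, but not for Fabp4. Mouse 5 of Adn-Lpin1-/- LFD ranked highest for all 5 genes. In Adn-Lpin1-/- HFD, mice 1, 2 and 3 lay above the group mean of log2 CPM for all 5 genes and mice 4 and 5 below it for all 5.

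**Figure D3:**
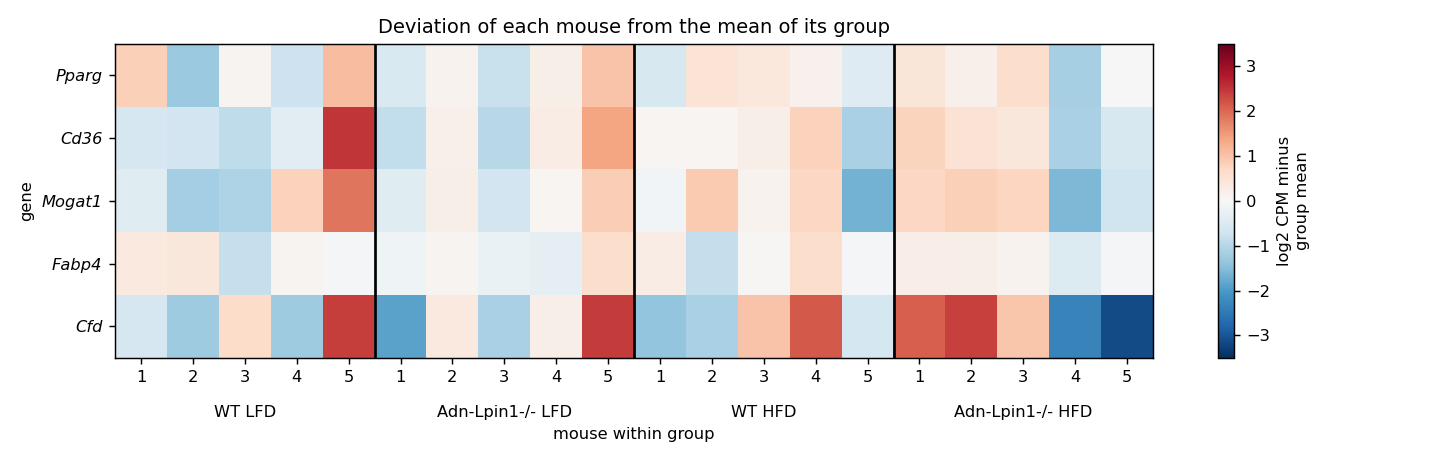
Log2 CPM of each gene in each of the 20 mice minus the mean of its group (colour scale in log2 units, red above and blue below the mean). Cfd shows the widest departures, from -3.14 in Adn-Lpin1-/- HFD mouse 5 to 2.45 in Adn-Lpin1-/- LFD mouse 5, and Cd36 of WT LFD mouse 5 lies 2.52 above its group mean.

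The pooled libraries, made of the same RNA, gave like values. All 20 pool values (5 genes in 4 groups) lay inside the range of the 5 mice. The ratio of the pool to the mean of its mice was between 0.696 (Pparg, WT LFD) and 1.28 (Mogat1, WT LFD). Cfd, for example, was 77.6 CPM in the Adn-Lpin1-/- HFD pool, beside a mean of 81.6 CPM over its mice scaled with the pools.

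Other known PPAR gamma targets were called for genotype about as often as genes in general. Of 32 further targets, 26 passed the limit on low counts, and on LFD 3 were higher in Adn-Lpin1-/- and 1 lower, 4 of 26 where 14.4% of all genes were called, and their median log2 fold change was 0.24 beside 0.01 over all genes. Fitm1, an endoplasmic reticulum protein that promotes droplet formation, was higher (log2 fold change 1.06 ± 0.33 SE, adjusted p = 0.0374 in edgeR), as were Pltp, a phospholipid transfer protein of plasma (1.33 ± 0.44 SE, adjusted p = 0.0456), and Ucp2, a carrier of the inner mitochondrial membrane (0.77 ± 0.24 SE, adjusted p = 0.0343). Dgat2, which makes triglyceride from diacylglycerol, was lower (-0.36 ± 0.07 SE, adjusted p = 0.00242). On HFD, 4 were higher and 1 lower, 5 of 26 where 18.6% of all genes were called, with a median of 0.16 beside 0.00. Ucp2 was higher again (1.21 ± 0.24 SE, adjusted p = 0.0022 in edgeR), with Gpd1, the glycerol 3-phosphate dehydrogenase (0.45 ± 0.15 SE, adjusted p = 0.0409), Agpat2, an acyltransferase of phosphatidic acid synthesis (0.45 ± 0.14 SE, adjusted p = 0.029), and Bscl2, the droplet biogenesis protein seipin (0.24 ± 0.06 SE, adjusted p = 0.00744). The adipocyte targets Adipoq, Retn and Aqp7 and the genes Aqp3, Mogat2 and Olr1 did not pass the limit on low counts.

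Between the diets, the further targets gave 1 call of 26 in WT (lower on HFD), where 1.1% of all genes were called, and 4 of 26 in Adn-Lpin1-/- (1 higher, 3 lower), where 2.46% were. Fabp5, the epidermal relative of Fabp4, was lower on HFD in WT (log2 fold change -3.17 ± 0.52 SE, adjusted p = 0.00959 in edgeR) and in Adn-Lpin1-/- (-4.48 ± 0.56 SE, adjusted p = 0.000173). In Adn-Lpin1-/- the desaturase gene Scd1 (-1.64 ± 0.36 SE, adjusted p = 0.019) and Pltp (-2.08 ± 0.45 SE, adjusted p = 0.0177) were lower and Bscl2 higher (0.26 ± 0.06 SE, adjusted p = 0.0202).

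Among 24 partner receptors and coregulators, all tested, 2 were lower in Adn-Lpin1-/- on each diet and none higher, near the 8.11% of all genes lower on LFD and 8.78% on HFD, and the list's median was -0.02 on either diet. They were Ncoa2, a p160 coactivator of nuclear receptors (-0.42 ± 0.07 SE on LFD, adjusted p = 0.000919, and -0.37 ± 0.07 SE on HFD, adjusted p = 0.00248, in edgeR), and Sirt1, a deacetylase known to repress PPAR gamma (-0.37 ± 0.11 SE, adjusted p = 0.0269, and -0.34 ± 0.11 SE, adjusted p = 0.031). The retinoid X receptor gene Rxra was at 552 ± 33.7 CPM in WT LFD and 499 ± 16.6 CPM in Adn-Lpin1-/- LFD (adjusted p = 0.0745 in edgeR), and Ppara, the main PPAR of hepatocytes, at 132 ± 36.8 and 129 ± 24.8 CPM. No gene of this list was called between the diets.

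Of 18 genes known to act upstream of Pparg, 15 were tested, and on each diet 2 were higher and 1 lower in Adn-Lpin1-/-, beside 14.4% of all genes called on LFD and 18.6% on HFD. Zfp423, a zinc finger factor of preadipocytes that is low in liver, was 0.346 ± 0.207 CPM in WT LFD and 1.71 ± 1.10 CPM in Adn-Lpin1-/- LFD (log2 fold change 2.30 ± 0.54 SE, adjusted p = 0.00792 in edgeR). On HFD it was 0.594 ± 0.381 and 2.40 ± 1.25 CPM (2.02 ± 0.50 SE, adjusted p = 0.00912). Its WT means lay under the limit of 1 CPM on both diets, so it entered the tests mainly through the groups in which it was high. Fos, an immediate early AP-1 subunit, was higher (1.05 ± 0.31 SE on LFD, adjusted p = 0.0287, and 1.26 ± 0.30 SE on HFD, adjusted p = 0.00739, in edgeR). Cebpa, an inducer of Pparg in adipogenesis that is abundant in hepatocytes, was lower (-0.30 ± 0.08 SE, adjusted p = 0.011, and -0.31 ± 0.08 SE, adjusted p = 0.00959). The list medians were 0.20 and 0.12. Between the diets only Stat5b, the growth hormone signal transducer, was called, higher on HFD in Adn-Lpin1-/- (0.31 ± 0.07 SE, adjusted p = 0.0197 in edgeR).

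Relatives of the 4 targets, by sequence or by function, did not move as a block. In the FABP family, 5 of 7 genes were tested, Fabp4 among them. Fabp1, the liver form, had a mean RPKM of 10660 over the 20 mice beside 12.2 for Fabp4, and its genotype difference was not called (log2 fold change 0.26 ± 0.10 SE on LFD, adjusted p = 0.0811 in edgeR, and -0.01 on HFD). Fabp2, the intestinal form, was higher on LFD (0.39 ± 0.11 SE, adjusted p = 0.0244). Fabp5 was lower in Adn-Lpin1-/- than in WT on HFD (-1.60 ± 0.52 SE, adjusted p = 0.0362), where Fabp4 was higher. Fabp7 was near 1 CPM and not called, Fabp3 did not pass the limit on low counts, and Fabp6 had no counts in any mouse.

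In the list of acyltransferases related to Mogat1 by sequence or by reaction, 4 of 6 genes were tested, with Mogat1 among them. Dgat2 was lower on LFD, as given above, and had a log2 fold change of -0.10 on HFD (adjusted p = 0.341 in edgeR). Dgat1, the other triglyceride-forming enzyme, was 25.8 ± 1.87 CPM in WT LFD and 27.4 ± 2.89 CPM in Adn-Lpin1-/- LFD (adjusted p = 0.41), and Awat2, a wax synthase, was not called either. Mogat2, the intestinal monoacylglycerol acyltransferase, had 0.394 ± 0.253 CPM in WT LFD and 0.436 ± 0.187 CPM in Adn-Lpin1-/- LFD and was too low to be tested, as was Awat1.

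Among 7 scavenger receptors, Cd36 included, 6 were tested. On HFD, Cd68 (log2 fold change 0.82 ± 0.20 SE, adjusted p = 0.0079 in edgeR) and Msr1 (0.65 ± 0.19 SE, adjusted p = 0.0225), both of macrophages, were higher in Adn-Lpin1-/-. Scarb1, the hepatocyte receptor for high-density lipoprotein, was 272 ± 30.1 CPM in WT LFD and 230 ± 33.5 CPM in Adn-Lpin1-/- LFD (adjusted p = 0.157). Scarb2 and Marco were not called on either diet, and no scavenger receptor was called on LFD.

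In the alternative complement pathway, in which Cfd cleaves factor B, 8 of 9 listed genes were matched and tested, including Cfd. The symbol C5 was not matched. C3, the central component, was lower in Adn-Lpin1-/- on LFD (log2 fold change -0.47 ± 0.13 SE, adjusted p = 0.0183 in edgeR) and HFD (-0.54 ± 0.13 SE, adjusted p = 0.00717). Cfi, the protease that inactivates C3b, was lower on HFD (-0.39 ± 0.09 SE, adjusted p = 0.0062 in edgeR). Cfp, properdin of leukocytes, was higher on HFD (0.65 ± 0.16 SE, adjusted p = 0.0087). Cfb, the substrate of Cfd, was 4.11 ± 0.252 CPM in WT LFD and 3.65 ± 0.719 CPM in Adn-Lpin1-/- LFD and was not called, nor were Masp1 and Cd55.

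**Figure D4:**
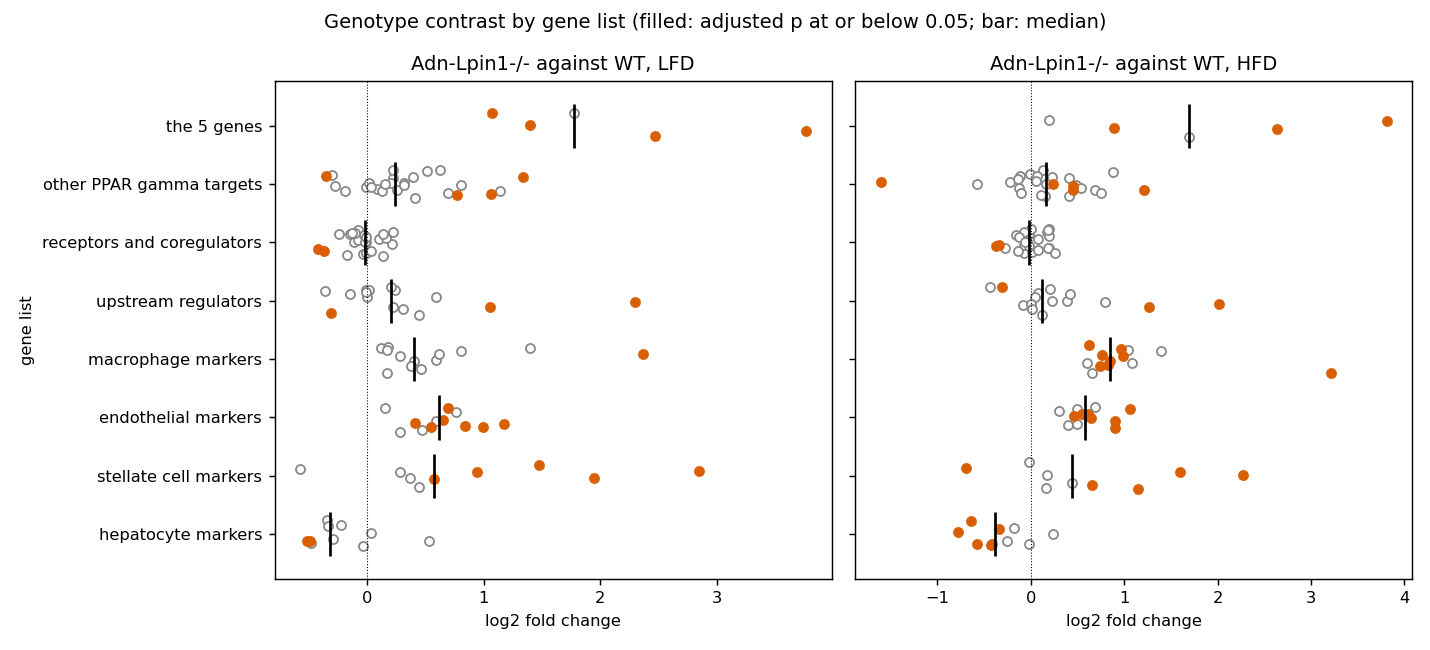
Log2 fold change of Adn-Lpin1-/- against WT liver for each tested gene of 8 lists, on LFD (left) and HFD (right); filled points have an adjusted p at or below 0.05 in edgeR, and bars are list medians. The median of the 5 genes is 1.77 on LFD and 1.69 on HFD, and the medians of the other 7 lists lie between -0.38 and 0.85.

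All 5 genes are also expressed outside hepatocytes, and in whole liver a change in the number of cells of a type and a change in RNA per cell cannot be told apart. Of the 10 adipocyte markers, 8 were too low to be tested. Lep had at most 4 counts, Plin1 at most 5 and Retn at most 6 in any mouse. Plin1 was at 0 in all 5 Adn-Lpin1-/- LFD mice and Retn in all 5 WT LFD mice, beside 2 to 6 counts of Retn in each Adn-Lpin1-/- LFD mouse. Aqp7, a glycerol channel of adipocytes, had 8, 2, 10, 0 and 22 counts in WT LFD mice 1 to 5 and 8, 57, 14, 29 and 25 in Adn-Lpin1-/- LFD mice. On HFD it had 6, 14, 0, 5 and 1 counts in WT mice and 88, 64, 42, 0 and 26 in Adn-Lpin1-/- mice, and the groups overlapped on both diets. Its mean level was 0.218 ± 0.217 CPM in WT LFD and 0.488 ± 0.377 CPM in Adn-Lpin1-/- LFD, and on HFD 0.0955 ± 0.101 CPM in WT and 0.636 ± 0.552 CPM in Adn-Lpin1-/- (not tested). Aqp7 is also a listed PPAR gamma target. Adipoq was highest in WT LFD mouse 1 (168 counts, 4.32 CPM) and WT HFD mouse 2 (41 counts) and had 8 or fewer counts in each of the other 18 mice, so its 2 highest mice were WT. The study reported lower Adipoq in the fat of Adn-Lpin1-/- mice on both diets. Adipoq counts therefore do not track adipocyte RNA in the same way in both genotypes. Adig, a small adipocyte protein, had 2 to 26 counts in each Adn-Lpin1-/- HFD mouse and at most 3 in any other mouse. The 10 adipocyte markers summed to 40.4 ± 3.202 CPM (SD, n = 5) in WT LFD, 38.1 ± 2.44 CPM in Adn-Lpin1-/- LFD, 38.6 ± 5.00 CPM in WT HFD and 43.4 ± 13.9 CPM in Adn-Lpin1-/- HFD, most of it from Lipe, hormone-sensitive lipase, which was the most abundant of them per length. Only Lipe and Adrb3 of this list were tested, and Adrb3 was lower in Adn-Lpin1-/- LFD (log2 fold change -0.83 ± 0.26 SE, adjusted p = 0.0347 in edgeR).

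Markers of macrophages and endothelium, cells in which Fabp4 and Cd36 are also known to be expressed, were counted in the same way. Of 13 macrophage markers, all tested, 1 was higher on LFD and 8 on HFD, with medians of 0.40 and 0.85, where 6.27% and 9.87% of all genes were called higher. The largest called on HFD were Gpnmb (3.21 ± 0.73 SE, adjusted p = 0.00573 in edgeR), Timd4 (0.99 ± 0.26 SE, adjusted p = 0.0128), Csf1r (0.97 ± 0.25 SE, adjusted p = 0.0109) and Lyz2 (0.85 ± 0.23 SE, adjusted p = 0.014), and Gpnmb was the one called on LFD (2.37 ± 0.75 SE, adjusted p = 0.0395). Gpnmb was low, at 0.175 ± 0.182 CPM in WT LFD and 0.928 ± 0.506 CPM in Adn-Lpin1-/- LFD. On HFD it was 0.147 ± 0.166 CPM in WT and 1.37 ± 0.936 CPM in Adn-Lpin1-/-. Its WT means lay under the limit of 1 CPM, so it entered the tests through the groups in which it was high. The 13 macrophage markers summed to 192 ± 48.2 CPM in WT LFD and 229 ± 63.6 CPM in Adn-Lpin1-/- LFD. On HFD the sums were 182 ± 17.5 CPM and 314 ± 113 CPM. Cd5l, secreted by Kupffer cells, was the most abundant of them per length.

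Of 12 endothelial markers, all tested, 7 were higher on each diet, beside 6.27% and 9.87% of all genes, with medians of 0.62 and 0.58. Vwf, von Willebrand factor, changed most (1.17 ± 0.22 SE on LFD, adjusted p = 0.00187, and 1.06 ± 0.22 SE on HFD, adjusted p = 0.00307, in edgeR), followed on LFD by Lyve1 (1.00 ± 0.29 SE, adjusted p = 0.0264), Pecam1 (0.84 ± 0.21 SE, adjusted p = 0.01) and Cdh5 (0.70 ± 0.22 SE, adjusted p = 0.0393). The 12 markers summed to 168 ± 32.1 CPM in WT LFD and 240 ± 56.3 CPM in Adn-Lpin1-/- LFD. These ranges, 122 to 203 and 186 to 327 CPM, overlapped. On HFD the markers summed to 177 ± 28.3 CPM and 265 ± 21.8 CPM, ranges of 150 to 225 and 235 to 283 CPM that did not overlap. Of single genes tested, 11.4% did not overlap between the genotypes on HFD (5.78% higher in Adn-Lpin1-/-). Eng, the most abundant of them per length, was higher on both diets (0.65 ± 0.15 SE, adjusted p = 0.00763, and 0.61 ± 0.15 SE, adjusted p = 0.0101). Adn-Lpin1-/- LFD mouse 5, highest of its group for all 5 genes, also had its group's highest macrophage (332 CPM) and endothelial (327 CPM) sums. Adn-Lpin1-/- HFD mouse 4, low for all 5, had its group's lowest (208 and 235 CPM). WT LFD mouse 5, high for all but Fabp4, lay below its group's mean sums, at 150.9 and 148.5 CPM. Adn-Lpin1-/- HFD mouse 3, high for all 5, had a macrophage sum of 217 CPM, below its group's mean. The part of adipocytes, macrophages and endothelium in the levels of the 5 genes was not tested.

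Of 9 tested stellate cell markers, 5 were higher on LFD, and 4 were higher and 1 lower on HFD, where 6.27% and 9.87% of all genes were called higher. They were led on both diets by the collagen genes Col1a1 (2.85 ± 0.64 SE, adjusted p = 0.00619, and 2.27 ± 0.62 SE, adjusted p = 0.016, in edgeR) and Col3a1 (1.94 ± 0.47 SE, adjusted p = 0.00917, and 1.60 ± 0.46 SE, adjusted p = 0.0216), with Acta2 (1.48 ± 0.39 SE, adjusted p = 0.0162, and 1.15 ± 0.37 SE, adjusted p = 0.037). Their sum was 150 ± 34.5 CPM in WT LFD, 276 ± 95.9 CPM in Adn-Lpin1-/- LFD, 194 ± 31.95 CPM in WT HFD and 281 ± 104 CPM in Adn-Lpin1-/- HFD, with Dcn the most abundant per length. None of 4 tested cholangiocyte markers, of which Sox9 was the most abundant, was called. Of 10 hepatocyte markers, 2 were lower on LFD and 6 on HFD and none higher, beside 8.11% and 8.78% of all genes called lower, with Apob lower on both (-0.49 ± 0.10 SE, adjusted p = 0.00244, and -0.58 ± 0.10 SE, adjusted p = 0.000633), Serpina1c lower on LFD (-0.52 ± 0.17 SE, adjusted p = 0.0461), and Apoa1 lower on HFD (-0.77 ± 0.16 SE, adjusted p = 0.00319).

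The genes whose pattern over the 20 mice was most like that of each member were found by Pearson r of log2 CPM across all tested genes, a description that holds the group differences as well as the mice. Pparg was nearest to Fitm1 (r = 0.869), the only one of the further PPAR gamma targets among these neighbours, then to Thoc5, Abcc3, Immt and Bhlhb9 (0.843 to 0.827). With group means removed, Fitm1 was still the nearest of all genes to Pparg (r = 0.838). Cd36 was nearest to Lgals1 (r = 0.965), which encodes the beta-galactoside binding protein galectin 1, and Lgals1 was the nearest gene to Mogat1 too (r = 0.954). Lgals1 was itself higher in Adn-Lpin1-/- on LFD (log2 fold change 2.14, adjusted p = 0.00335 in edgeR) and HFD (1.68, adjusted p = 0.0117).

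After Lgals1, Cd36 was nearest to Clstn3, Smarca4, Mrgprb11-ps and Pigq (r 0.935 to 0.926). Mogat1 was nearest to Serinc2, Zmat3, Acer2 and Rmdn3 (0.933 to 0.926). Fabp4 was nearest to Ltbp4 (r = 0.937), which binds latent TGF-beta in the matrix, then to Arrb1, Anxa2, Flna and Pmepa1 (0.926 to 0.913). Cfd was nearest to Psap (r = 0.958), the precursor of the lysosomal saposins, then to Parva, Smarca4, Mrgprb11-ps and Themis (0.946 to 0.932). Psap itself was not called for genotype (0.24 on LFD, adjusted p = 0.12, and 0.28 on HFD, adjusted p = 0.0592, in edgeR), and with group means removed its r with Cfd was 0.920.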

How the data were processed

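Poly-A RNA of 24 mouse livers or pools was sequenced. The authors aligned reads to GRCm38 (Ensembl release 76) with STAR 2.5.1a and counted uniquely aligned, unambiguous reads per gene with featureCounts 1.4.6-p5. The authors deposited counts, CPM (counts divided by the library's total and scaled) and RPKM (CPM per kilobase). All tests used the counts, and RPKM served to compare levels between genes. With 355 rRNA features removed, a gene needed more than 1 CPM in 4 or more of the 20 mouse libraries, which 13052 genes met, and these were fitted in edgeR 4.0.16 (R 4.3.3): TMM scaling, 4 group means in 1 fit, quasi-likelihood test, Benjamini-Hochberg adjustment over all genes, threshold 0.05. Pools were left out as repeats of the same mice. The fit, tested on simulated counts (genotype on LFD, 12898 genes, 200 changed), recovered 180 with 2 false calls. The 20 exact permutation tests of members were not adjusted. Log2 CPM had a prior count of 2. Correlations used numpy 2.4.6 and scipy 1.17.1. Symbols came from GENCODE mouse release M21 for 97.26% of features, and promoters from RefSeq.

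The members and lists were chosen with earlier results of these data known. Genes named are the members, up to 4 called genes of largest change per list and contrast, and the 4 short lists of relatives. The most abundant marker of each cell type and the 5 genes most like each member were named too. Rxra and Ppara were named besides, as the known partner and relative of PPAR gamma, and Adig, Plin1 and the genes of the target list below the limit after their values were seen. Alternatives were DESeq2 1.42.0 (size factors and Wald test), voom with quality weights of limma 3.58.1 (the test of the study's methods) with and without the pools as sixth libraries, no limit on low counts, edgeR's default limit, a fit of just the 2 groups in question, a GC trend taken out, a block for replicate number, and the omission of single mice. One gene of the complement list is not reported here.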

Additional observations from a re-analysis of the deposited data

Results flagged for a closer look

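Each of the 5 genes was checked in each of the 4 groups for a mouse far from the other 4 of its group on the log2 scale, 20 checks in all, of which chance flags about 1 in 20. One was found: Cd36 in WT LFD mouse 5, at 79.9 CPM, beside 7.56 to 10.7 CPM in the other mice of that group. The same mouse was also highest of its group for Pparg (9.66 CPM), Mogat1 (1.38 CPM) and Cfd (2.71 CPM), but not for Fabp4 (4.41 CPM).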

How the results depend on the processing

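Of 1027 recomputed values, 917 kept their direction and their side of the threshold (or, for counts of genes, stayed within 1.5 times), 37 moved, 37 reversed, 20 gained and 16 lost the threshold, and the causes were not tested. Mogat1 and Fabp4 kept their genotype calls on both diets, and Cfd on HFD, under all alternatives run. Log2 fold changes are followed by adjusted p. On LFD, Pparg was 1.402 (0.0558) with only the 2 groups compared. Cd36 on LFD was 1.78 (0.0398) with DESeq2's Wald test, 2.39 (0.00403) with voom, 2.30 (0.000126) with voom and pools and 1.94 (0.0464) with the GC trend removed. On HFD it was 1.69 (0.0432), 1.53 (0.0237), 1.71 (0.000413) and 1.89 (0.0436) in the same order, and 1.69 (0.0163) with only the 2 groups. Cfd on LFD was 3.93 (0.33) with voom and 4.05 (0.147) with pools added. With voom and pools, 4177 genes were called for genotype on LFD, 4763 on HFD, 1927 for diet in WT, 2327 for diet in Adn-Lpin1-/- and 190 for the interaction. The diet calls of that fit held 2 members in WT, Pparg (1.49, 0.00647) and Cd36 (1.24, 0.0433), and 1 in Adn-Lpin1-/-, Cfd (2.72, 0.00758). Because the pools repeat RNA of the same mice, that fit counts mice more than once, and its p-values overstate the evidence. DESeq2's Wald test called 400 genes for diet in WT, 577 in Adn-Lpin1-/- and 30 for the interaction, voom 670 for diet in WT, and the 2-group fits 70 and 155 for the diets. Uncalled values that changed sign were Pparg for diet in Adn-Lpin1-/- (0.027 with voom, 0.02 with pools), and for the interaction Mogat1 (-0.49 and -0.21), Cfd (-0.85 and -0.47, and -0.005 with the GC trend removed) and Fabp4 (0.10 with pools). Pparg and Mogat1 had r = 0.519 without 2 mice. Mogat1 for diet in WT gave no value under 1 alternative.

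Same-numbered mice showed no clear common deviation (r of their deviations from the group means -0.415 to 0.281, over 0.1 in 6 of 30 pairs). These r gave no sign that the numbers pair the mice, but they were not tested, and the labels give no litter. With the replicate block, Cd36 on LFD was 2.05 (adjusted p = 0.0438 in edgeR), Cfd on LFD 3.57 (0.0831), and 90 genes were called for diet in WT.

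With each of the 20 mice left out in turn, genes called ranged from 1208 to 1954 for genotype on LFD, 1477 to 2750 on HFD, 55 to 289 for diet in WT and 123 to 383 in Adn-Lpin1-/-. Members called ranged from 2 (without WT LFD mouse 2, 3 or 4 or Adn-Lpin1-/- LFD mouse 2 or 5) to 5 (without WT LFD mouse 5 or Adn-Lpin1-/- LFD mouse 1, where Cd36 was called, in the latter case at 1.95, adjusted p = 0.0494 in edgeR) on LFD, from 3 to 4 on HFD, and from 0 to 1 for either diet contrast. On LFD, Pparg ranged from 1.07 to 1.71, Cd36 from 1.27 to 3.12 and Cfd from 2.62 to 5.03. On HFD, Cd36 ranged from 1.48 to 1.91 (adjusted p 0.0106 to 0.134 in edgeR), called without WT LFD mouse 5, Adn-Lpin1-/- LFD mouse 5 or Adn-Lpin1-/- HFD mouse 4. For diet in WT, Cd36 ranged from 0.26 to 1.85 and Mogat1 from -0.20 to 0.85. For diet in Adn-Lpin1-/-, Pparg ranged from -0.30 to 0.19 and Cfd from 2.31 to 4.00. For the interaction, Cd36 ranged from -1.44 to 0.43, Mogat1 from -0.64 to 0.44, Fabp4 from -0.34 to 0.011 and Cfd from -1.22 to 1.19. Mogat1 and Cfd had the lowest counts of the members, with as few as 5 and 7 in a WT LFD mouse.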
